A study of Mus musculus with 8 samples.

Results

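The genes described here encode matrix proteases, their inhibitors and the enzymes that crosslink collagen and elastin. They were chosen by name, and are the 10 rows of the deposited table whose Ensembl identifiers carry the symbols Mmp2, Mmp3, Mmp9, Mmp14, Timp1, Timp2, Timp3, Lox, Loxl1 and Loxl2, of 54532 rows in all. They comprise 4 matrix metalloproteinases (MMPs), 3 tissue inhibitors of metalloproteinases (TIMPs) and 3 lysyl oxidases. All 10 had reads in at least 1 mouse, and 9 passed the filter on low counts. Mmp3 did not.

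MMPs are zinc enzymes that are made as inactive precursors and cut matrix proteins once activated. TIMPs bind the active site of MMPs and block it, and MMP-14 at the cell surface, together with TIMP-2, activates the MMP-2 precursor. Lysyl oxidases build matrix instead, since they oxidise lysines of collagen and elastin so that the fibres become crosslinked. Matrix turnover of this kind accompanies inflammation and fibrosis in the prostate, and TNF is a known inducer of several MMP genes in stromal and immune cells.

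Expression was measured by bulk RNA-seq of prostate tissue from male NOD mice, an inbred strain that develops spontaneous autoimmune inflammation with prostatic hyperplasia. Of 8 mice, 4 received the PBS vehicle (control 1, 3, 65 and 69) and 4 received the TNF antagonist etanercept, a soluble TNF receptor, at 4 mg/kg (etanercept 17, 19, 50 and 52), with 2 injections a week for 5 weeks and tissue collected at an age of 30 weeks. Each library came from 1 mouse, and all mice carried the NOD background without a transgene. Diabetic and non-diabetic animals were pooled in the study, and the labels used here do not give the status of a mouse.

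The libraries held between 13760669 and 25178942 counts. Seminal vesicle markers ranged from 0 CPM (counts scaled to a common library size after TMM normalization) in control 1 and control 3 to 97204 CPM in etanercept 17. Since the tissue was sequenced in bulk, fewer cells of a type and less RNA per cell cannot be told apart in any of the values that follow.

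To show what lies upstream of the members the results turn on, the 250 bases before the RefSeq start site are given for Mmp14 and Timp1, the tested members with the lowest values relative to control, and for Mmp3, a classical inducible MMP gene (build GRCm38.p6; 5′ to 3′ on the gene's plus strand). Of the 10 members, 5 had an entry in the RefSeq promoter table used here (Mmp3, Mmp14, Timp1, Timp2 and Timp3). Capitals mark matches to 4 motifs that were searched on both strands over 250 bases before and 50 bases after the start: the AP-1 motif TGANTCA, the TATA box TATAAA, the GC box GGGCGG and the NF-kappaB consensus, by name.
Mmp14 (chr14:54431348-54431597): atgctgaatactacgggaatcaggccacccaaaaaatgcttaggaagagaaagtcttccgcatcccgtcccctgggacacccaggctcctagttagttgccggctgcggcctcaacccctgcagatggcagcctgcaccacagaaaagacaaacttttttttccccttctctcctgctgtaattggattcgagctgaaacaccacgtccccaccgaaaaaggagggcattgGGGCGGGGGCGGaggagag
Timp1 (chrX:20869916-20870165): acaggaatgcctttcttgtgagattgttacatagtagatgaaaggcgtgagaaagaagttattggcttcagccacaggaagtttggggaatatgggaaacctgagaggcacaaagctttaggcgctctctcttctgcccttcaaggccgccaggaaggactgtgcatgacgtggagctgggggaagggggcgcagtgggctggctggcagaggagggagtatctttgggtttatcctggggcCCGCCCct
Mmp3 (chr9:7445572-7445821): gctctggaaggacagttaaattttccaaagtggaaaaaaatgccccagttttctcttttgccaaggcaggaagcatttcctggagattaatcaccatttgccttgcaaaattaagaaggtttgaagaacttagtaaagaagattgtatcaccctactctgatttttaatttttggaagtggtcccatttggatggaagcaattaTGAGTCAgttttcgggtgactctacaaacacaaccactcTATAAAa

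In these letters Mmp14 held 2 adjoining GC boxes, from 19 to 8 bases before the start, and Timp1 held 1 on the other strand, from 8 to 3 bases before it. Mmp3 held an AP-1 motif, TGAGTCA, from 46 to 40 bases before its start, and a TATA box from 7 to 2 bases before it. The windows of Timp2 and Timp3 held GC boxes and no other motif. No window of the 5 members held the NF-kappaB consensus. Of 32851 promoter windows of this length, 35.7% held a GC box, 13.6% a TATA box, 8.46% the NF-kappaB consensus and 7.81% the AP-1 motif. These matches describe the sequence alone.

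To ask how TNF blockade affected matrix remodelling genes, etanercept-treated mice were compared with control mice across all 15472 tested genes. Mmp14 and Timp1 were the tested members with the largest differences, and both had lower values with etanercept, by 1.86-fold and 2.19-fold. The other 7 tested members had estimates between 1.15-fold lower and 1.43-fold higher, all with 95% intervals that include no difference. With edgeR's quasi-likelihood fit and p-values adjusted over all tested genes, 0 members were called at 0.05, as were 0% of all tested genes. At a nominal p (unadjusted, at most 0.05) 1024 genes passed, or 6.62% of those tested, and 2 of the 9 tested members. In edgeR both of these members were lower, where 3.63% of all tested genes were lower at a nominal p, and 0 members were higher, where 2.99% of all tested genes were. DESeq2's Wald test was run without the filter on low counts, on 23393 genes. It called 21 genes after adjustment, and 0 of them were members. For 0 of the members tested in edgeR did every etanercept-treated mouse lie below every control mouse, where 2.53% of all 15472 genes did so. The median log2 fold change was −0.080 over the tested members and −0.0099 over all tested genes. Members were chosen with earlier results in view, in which Mmp14 already appeared, so that the share called is a description.

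**Figure D1:**
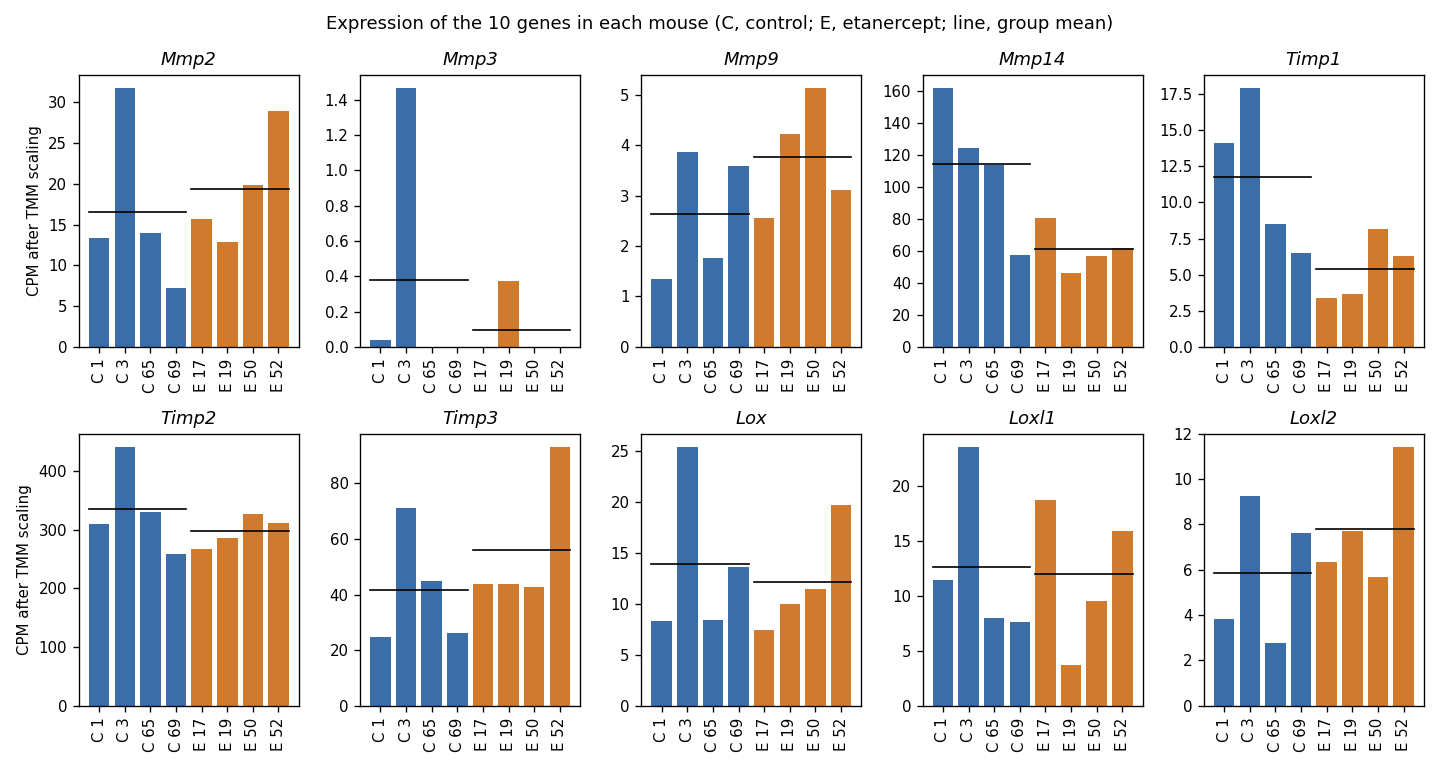
Bars give the CPM of each of the 10 genes in each mouse (blue, control; orange, etanercept; each panel has its own axis from 0), and horizontal lines give the group means. Mmp14 and Timp1 had group means of 114 and 11.8 CPM in control and, with etanercept, of 61.3 and 5.38 CPM, while the bars of the other genes overlapped widely between the groups.

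Among the proteases, Mmp14 (chromosome 14, 54431612 to 54445364), which encodes the membrane-anchored MMP-14, had 162, 124, 113 and 57.5 CPM in control 1, 3, 65 and 69 and 80.4, 46.2, 57.0 and 61.5 CPM in etanercept 17, 19, 50 and 52. Of the control mice, 3 lay above every etanercept-treated mouse, and control 69 lay within the etanercept range. The control mean was 114 ± 43.2 CPM and the etanercept mean 61.3 ± 14.3 CPM (SD, n = 4 each). The log2 fold change in edgeR was −0.90, with a standard error of 0.30 and a 95% interval of −1.57 to −0.23 (unadjusted p = 0.0138, adjusted p = 0.739). By p it ranked 265th of 15472 genes. The two-sided exact permutation test over the 70 assignments of the mice gave p = 0.0857, where 0.0286 is the smallest value that 4 mice against 4 allow. The log2 fold change was −1.12 without control 69 (unadjusted p = 0.00059 and adjusted p = 0.274 in edgeR) and −0.70 without control 1. Control 69 was also the control mouse with the most seminal vesicle marker RNA, 4001 CPM against at most 26.98 CPM in the other 3. Etanercept 17 had 97204 CPM of these markers and, at 80.4 CPM, the highest Mmp14 value of the etanercept-treated mice. The part of this RNA in the values of Mmp14 was not tested.

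Timp1 (chromosome X, 20870166 to 20874735), an inducible TIMP gene that is known to respond to inflammatory signals, had 14.1, 17.9, 8.52 and 6.48 CPM in control 1, 3, 65 and 69. In etanercept 17, 19, 50 and 52 it had 3.38, 3.69, 8.13 and 6.31 CPM. Control 1 and control 3 were the highest 2 mice, and only the value of etanercept 50 was above the lowest control value. The control mean was 11.8 ± 5.23 CPM and the etanercept mean 5.38 ± 2.26 CPM (SD, n = 4 each). In edgeR the log2 fold change was −1.13, with a standard error of 0.44 and a 95% interval of −2.11 to −0.15 (unadjusted p = 0.0276, adjusted p = 0.739). The exact permutation test gave p = 0.0571. With the trend of expression with gene length removed, the log2 fold change was −0.85 and edgeR gave an unadjusted p = 0.0650. Without control 3 it was −0.85 as well (unadjusted p = 0.0952 in edgeR), and this p was also above 0.05 without control 1, etanercept 17 or etanercept 19 (0.0603, 0.0642 and 0.0724). The Timp1 locus lies inside Syn1, on the other strand, without sharing exon sequence.

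The animal numbers fall into a low and a high set, and the groups were also compared within each. Among control 1 and 3 and etanercept 17 and 19, the mean log2(CPM + 1) of Timp1 differed by −1.90 (etanercept minus control), and among control 65 and 69 and etanercept 50 and 52 the difference was −0.048. For Mmp14 these differences were −1.204 and −0.44. Other members also differed between the sets: the difference was −0.51 and 1.17 for Mmp2, −0.71 and 0.45 for Lox, −0.86 and 0.60 for Loxl1 and −0.42 and 0.12 for Timp2, so that these 4 had opposite signs in the low and the high set. It was above 0 in both sets for Mmp9 (0.36 and 0.50), Timp3 (0.058 and 0.86) and Loxl2 (0.18 and 0.68). The labels do not say what the animal numbers stand for, and the differences within sets were not tested. With the number set as a term in edgeR, the log2 fold changes were −0.85 for Mmp14 (unadjusted p = 0.0157) and −1.11 for Timp1 (unadjusted p = 0.0499).

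**Figure D2:**
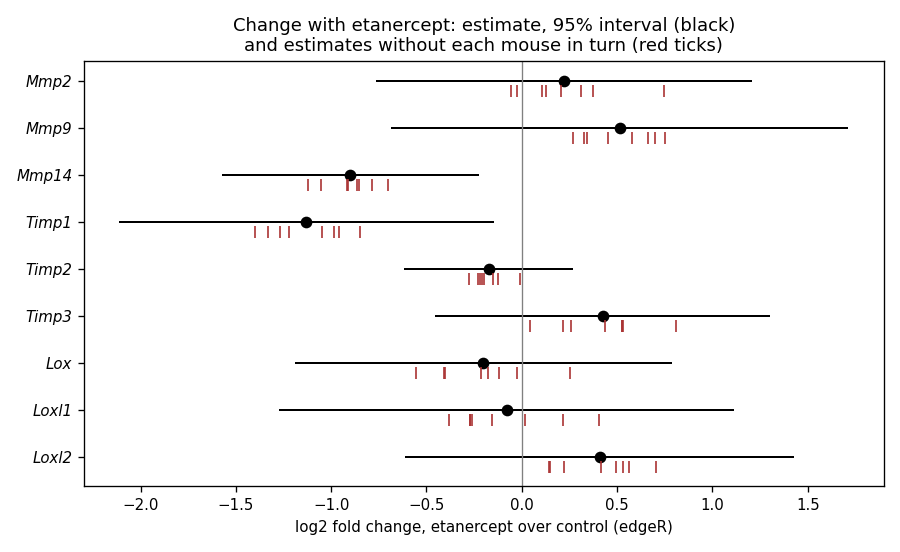
Points and black bars give the log2 fold change of each tested gene, etanercept over control, with its 95% interval from edgeR, and red ticks give the estimates obtained when a single mouse is left out. The intervals of Mmp14 and Timp1 lie below 0, and their ticks span −1.12 to −0.70 and −1.40 to −0.85, while those of Mmp2, Lox and Loxl1 lie on both sides of 0.

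The gelatinase genes encode enzymes that cut denatured collagen and basement membrane collagen. Mmp2 (chromosome 8, 92827291 to 92853420), expressed mainly by stromal cells, had 13.3, 31.8, 14.0 and 7.23 CPM in control 1, 3, 65 and 69 and 15.7, 12.8, 19.8 and 29.0 CPM in etanercept 17, 19, 50 and 52. Control mice held both the highest and the lowest value. The log2 fold change was 0.22 (standard error 0.44, 95% interval −0.76 to 1.203, adjusted p = 0.976 in edgeR), and it was −0.027 without control 69 and −0.055 without etanercept 52.

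Mmp9 (chromosome 2, 164940780 to 164955850), which is known from neutrophils and macrophages, had 1.34, 3.87, 1.76 and 3.59 CPM in control mice, in the same order, and 2.56, 4.22, 5.14 and 3.12 CPM with etanercept, from 25 to 86 counts in a mouse. The highest 2 values were from etanercept 50 and etanercept 19, and the groups overlapped. For Mmp9 the log2 fold change was 0.51 (standard error 0.53, 95% interval −0.68 to 1.71, adjusted p = 0.923 in edgeR), and it was 0.27 without control 1 and 0.75 without control 3. Neutrophil markers summed to at most 4.401 CPM in every library, S100a8 had 0 counts in every mouse and 1 of the 6 markers passed the filter on low counts.

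Mmp3 (chromosome 9, 7445822 to 7455975), which encodes stromelysin-1, was at the limit of detection. It had 22 counts in control 3, 7 counts in etanercept 19, 1 count in control 1 and 0 counts in the other 5 mice, where 3 counts, taken as the floor, correspond to between 0.159 and 0.218 CPM of the library total. No difference between the groups was detectable from these counts, which were spread unevenly over the mice of each group: control 1, the library with the most counts in total, had 1 count of Mmp3. DESeq2's Wald test, which includes it, gave a log2 fold change of −2.02 with a standard error of 2.97.

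Timp2 (chromosome 11, 118301069 to 118355740), the inhibitor gene expressed constitutively in many tissues, was the steadiest member. It had 309, 441, 330 and 259 CPM in control 1, 3, 65 and 69 and 266, 285, 326 and 311 CPM in etanercept 17, 19, 50 and 52. All 4 etanercept-treated mice lay within the control range. The coefficient of variation was 23.04% in control mice and 8.94% with etanercept, against between 30.6% and 56.1% in etanercept-treated mice for the other tested members except Mmp14, with 23.3%. The log2 fold change was −0.17 (standard error 0.20, 95% interval −0.61 to 0.26, adjusted p = 0.931 in edgeR), and it was −0.012 without control 3 and −0.28 without control 69.

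Timp3 (chromosome 10, 86300372 to 86349506), whose product is bound to the matrix and also inhibits ADAM proteases, had 24.7, 71.1, 44.8 and 26.3 CPM in control mice and 43.9, 43.7, 42.8 and 93.3 CPM with etanercept, in the same order. Etanercept 17, 19 and 50 lay close together and etanercept 52 stood far above them. The log2 fold change of 0.42 (standard error 0.39, 95% interval −0.45 to 1.297, adjusted p = 0.903 in edgeR) was 0.045 without etanercept 52 and 0.81 without control 3. The Timp3 counts are uncertain, since 21.3% of its exon sequence is also annotated as exons of Syn3 on the other strand and the sources used here do not say that counting used strand.

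For the lysyl oxidase genes no difference beyond the spread between mice was found. Lox (chromosome 18, 52516067 to 52529867), the founding member, had 8.32, 25.5, 8.45 and 13.6 CPM in control 1, 3, 65 and 69 and 7.40, 10, 11.4 and 19.7 CPM in etanercept 17, 19, 50 and 52. Its log2 fold change of −0.20 (standard error 0.44, 95% interval −1.19 to 0.78, adjusted p = 0.982 in edgeR) was 0.25 without control 3.

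Loxl1 (chromosome 9, 58287738 to 58313186), which is required for elastic fibre renewal, had 11.5, 23.6, 7.96 and 7.64 CPM in control mice and 18.8, 3.74, 9.51 and 15.9 CPM with etanercept, in the same order. It had the widest span of the tested members, 6.31-fold between its highest and lowest mouse. Its log2 fold change was −0.080 (standard error 0.53, 95% interval −1.27 to 1.11, adjusted p = 0.997 in edgeR), and it was 0.40 without control 3 and −0.38 without etanercept 17.

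Loxl2 (chromosome 14, 69609068 to 69695834), which acts on basement membrane collagen, had 3.83, 9.27, 2.75 and 7.64 CPM in control mice and 6.35, 7.70, 5.68 and 11.4 CPM with etanercept. The lowest 2 mice were controls and the highest was etanercept 52. Its estimated log2 fold change was 0.41 (standard error 0.45, 95% interval −0.61 to 1.43, adjusted p = 0.930 in edgeR). It was 0.14 without etanercept 52, 0.15 without control 65 and 0.71 without control 3. Of its exon sequence, 5.57% overlaps the antisense gene Gm27177.

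Control 3 had the highest CPM of all 8 mice for 5 of the 9 tested members (Mmp2, Timp1, Timp2, Lox and Loxl1), and etanercept 52 for 2 (Timp3 and Loxl2). The fibroblast markers (Pdgfra, Dcn, Lum, Col1a1, Col1a2, Col3a1, Fbln1 and Mfap5) summed to 1144 CPM in control 3 and 1084 CPM in etanercept 52, and to between 431 and 776 CPM in the other 6 mice. Control 3 was also the highest mouse in macrophage markers (958 CPM, at most 493 CPM elsewhere), adipocyte markers (463 CPM, at most 199 CPM elsewhere), T cell markers (112 CPM, at most 84.1 CPM elsewhere), neutrophil markers, endothelial markers (149 CPM, at most 83.6 CPM elsewhere), B cell markers (294 CPM, at most 134 CPM elsewhere) and skeletal muscle markers (1664 CPM, between 67.6 and 1311 CPM elsewhere), and the mean log2(CPM + 1) of the skeletal muscle markers was 7.71 in it and between 1.40 and 3.75 in the other mice. The part of these markers in the member values was not tested.

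Members were also compared pair by pair over the 8 mice, on log2(CPM + 1). Of 45 pairs, 6 passed 0.05 for Pearson's r before adjustment (exact permutation test) and 0 after it, the smallest adjusted value being 0.323 after Benjamini-Hochberg adjustment over the 45 pairs. The highest r was that of Mmp2 and Timp3, at 0.862 (exact permutation p = 0.0111), with a Spearman's rho of 0.714 (exact permutation p = 0.0576, adjusted p = 0.518) and an r of 0.818 without control 3 and control 69, the mice farthest from the median of Mmp2. Mmp14 and Timp1 had an r of 0.736 (exact permutation p = 0.0431, adjusted p = 0.323) and a rho of 0.643 (exact permutation p = 0.0962, adjusted p = 0.618). Without control 1 and control 3, the mice farthest from the median of Mmp14, their r was 0.317, and on deviations from the group means of all 8 mice it was 0.486 (exact permutation p = 0.230). On deviations from the group means, 9 pairs passed 0.05 before adjustment and the smallest adjusted p was 0.0806 (exact permutation test).

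To compare levels between genes, counts were also divided by exon length (FPKM from CPM after TMM scaling). Timp2 was far above the rest, with a mean level of 81.1 ± 14.7 FPKM (SD, n = 8), and in each mouse it exceeded Mmp14, the next member at 14.7 ± 6.89 FPKM, without overlap of their ranges. Mmp14 was above Timp1 (9.65 ± 5.69 FPKM) in all 8 mice, although their ranges over mice overlapped. Timp1, Timp3 (5.99 ± 2.81 FPKM) and Mmp2 (5.33 ± 2.51 FPKM) did not differ beyond their spread, since Timp1 was above Timp3, and Timp3 above Mmp2, in 5 of 8 mice. Loxl1 (3.74 ± 2.00 FPKM) was below Mmp2 and above Lox (2.73 ± 1.34 FPKM) in 6 of 8 mice each, within their spread. Loxl2 (1.26 ± 0.52 FPKM) was below Lox in 8 of 8 mice and above Mmp9 (0.904 ± 0.360 FPKM) in 7 of 8. Mmp3, at 0.130 ± 0.286 FPKM, was the lowest.

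**Figure D3:**
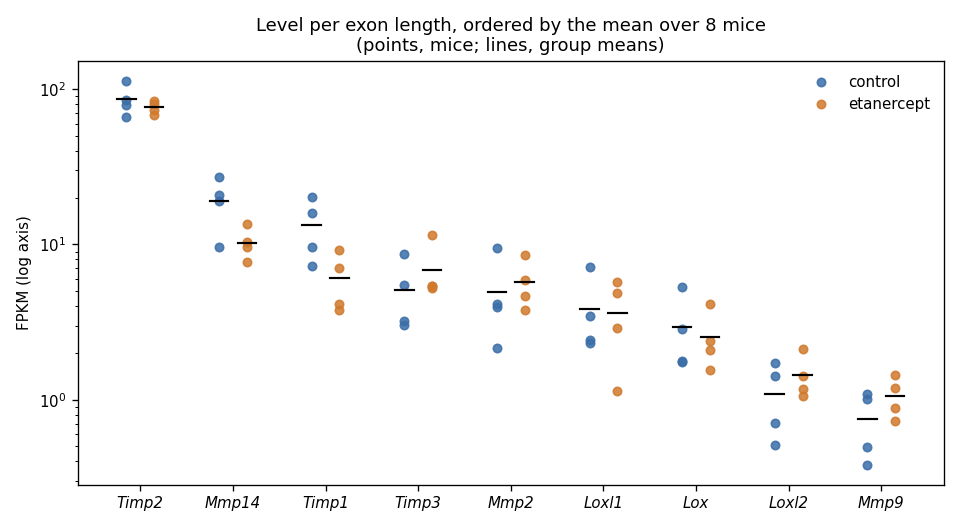
Points give the level of 9 members in FPKM on a log axis, per mouse (blue, control; orange, etanercept), and lines the group means, with genes ordered by the mean over 8 mice. Timp2 lies between 66.4 and 113 FPKM, above every value of the other genes; Mmp3 is left out because it was 0 in 5 mice.

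The makeup of each family was then described per mouse, with no test because it sums over members. Mmp14 made up 76.7 ± 9.09% of the summed FPKM of the 4 MMP members in control mice and 60.01 ± 8.29% with etanercept (SD, n = 4 each), with ranges of 64.8% to 86.2% and 52.1% to 71.5%. Timp1 made up 16.2, 14.2, 9.61 and 9.49% of the summed FPKM of the 3 TIMP members in control 1, 3, 65 and 69 and 4.91, 5.03, 9.34 and 7.23% in etanercept 17, 19, 50 and 52. The groups did not overlap in this share, and the gap between control 69 and etanercept 50 was small. These 3 genes leave out Timp4. Control 69 had 7.30 FPKM of Timp1 beside 189 FPKM over all 4 TIMP genes, and etanercept 50 had 9.16 FPKM beside 165 FPKM. With Timp4 counted, the groups thus overlap in the share of Timp1. Over the members, the ratio of summed MMP to summed TIMP FPKM was 0.238 ± 0.064 in control mice and 0.194 ± 0.038 with etanercept (SD, n = 4 each), and the groups overlapped. The direction of that ratio depended on its top members: without Mmp14 and Timp2 it was 0.308 ± 0.066 in control and 0.538 ± 0.036 with etanercept, and the groups did not overlap, with at most 0.392 in control and at least 0.509 with etanercept. What remains of the TIMP sum is Timp1 and Timp3, and Timp1 was at 13.2 FPKM in control and 6.05 FPKM with etanercept. With Mmp14, also lower, taken out, this rise in part restates the Timp1 difference and is not a separate result.

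**Figure D4:**
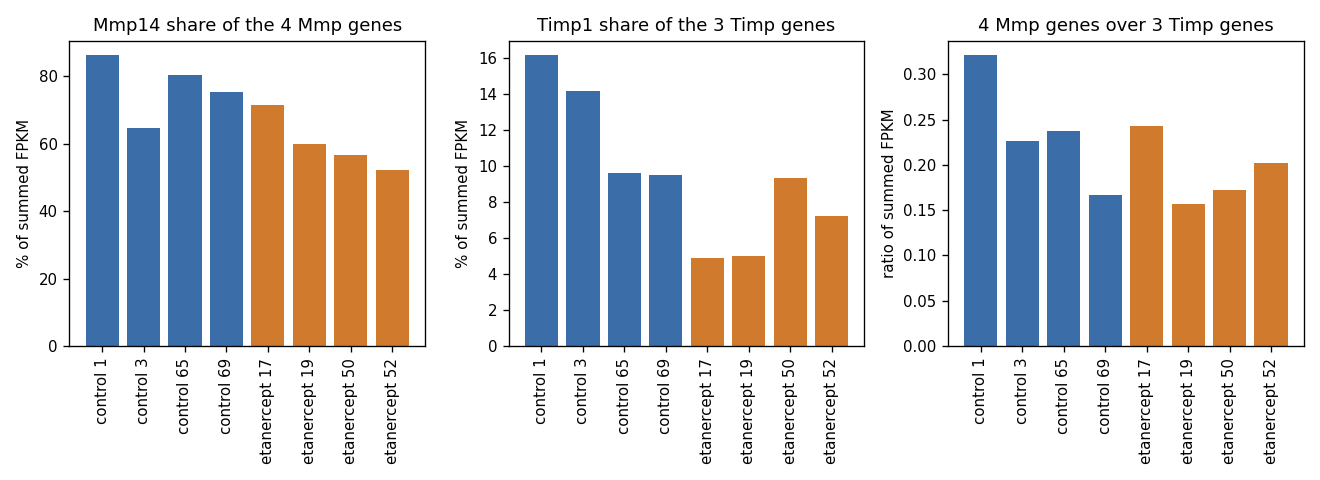
Bars give, per mouse, the share of Mmp14 in the summed FPKM of the 4 MMP members, the share of Timp1 in that of the 3 TIMP members and the ratio of the 2 sums (blue, control; orange, etanercept). The Timp1 share of these 3 TIMP members, which leave out Timp4, was at least 9.49% in control and at most 9.34% in etanercept-treated mice. The other 2 panels overlap.

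Other genes of matrix turnover were examined in lists. Of the 19 other MMP genes, 11 were tested, 1 was higher and 0 were lower at a nominal p (edgeR), with a median log2 fold change of −0.23. The gene that was higher at that p is Mmp17, a membrane-anchored MMP, with 21.5 ± 8.29 CPM in control and 37.5 ± 12.96 CPM with etanercept (SD, n = 4 each; log2 fold change 0.81, standard error 0.33, adjusted p = 0.739). Mmp7, matrilysin, which epithelial cells secrete, had the highest level of all MMP genes, 486 ± 348 FPKM over the 8 mice, from 58.6 FPKM in control 69 to 956 FPKM in control 1. In edgeR its log2 fold change of −0.84 had a standard error of 0.78 (adjusted p = 0.904). Mmp7 thus supplied between 47.6% and 93.7% of the summed FPKM of all 23 MMP genes in a mouse, so that the 4 members are the minor part of MMP transcripts in this tissue.

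Of Timp4, Reck, Loxl3 and Loxl4, all tested, 0 were higher and 0 were lower at a nominal p in edgeR, with a median log2 fold change of 0.19. Timp4 was highly uneven between mice of both groups. It had 24.5, 172, 76.9 and 660 CPM in control 1, 3, 65 and 69 and 6.35, 396, 393 and 168 CPM in etanercept 17, 19, 50 and 52. It supplied between 1.37% and 59.3% of the summed FPKM of all 4 TIMP genes, and its log2 fold change was 0.046 with a standard error of 1.11.

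The ADAMTS proteases, secreted enzymes that cut proteoglycans and procollagens, had 12 of 19 genes tested, with 0 higher and 0 lower at that p in edgeR and a median log2 fold change of 0.13. Adamts1 had the highest level among them, 3.49 ± 2.67 FPKM. The plasminogen system had 5 of 8 genes tested, again with 0 higher and 0 lower, and a median log2 fold change of 0.34. Serpine2, an inhibitor of plasminogen activators and the list's highest gene, had 897 CPM in etanercept 17 and between 68.5 and 210 CPM in the other mice.

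The substrates and elastic fibre partners, such as collagens, fibronectin, elastin and fibrillin-1, were all tested, 20 of 20. At a nominal p in edgeR, 0 were higher and 0 were lower, and 15 estimates were above 0. The median log2 fold change was 0.52, beside −0.0099 over all tested genes. Dcn, the gene of decorin and the highest of this list at 64.5 ± 22.2 FPKM, had an estimate of −0.011 on the log2 scale (standard error 0.31). Among the enzymes that process collagen, 14 of 15 genes found in the table were tested, 1 was higher and 0 were lower at that p, and the median log2 fold change was 0.065. The 1 higher gene is P3h1, a prolyl hydroxylase of collagen chains, with 9.56 ± 0.84 CPM in control and 16.2 ± 3.37 CPM with etanercept (SD, n = 4 each; log2 fold change 0.76, standard error 0.24, unadjusted p = 0.0112, adjusted p = 0.739 in edgeR). Each etanercept-treated mouse lay above each control mouse for P3h1, as for 2.41% of all tested genes. P4hb, the highest gene of that list at 742 ± 171 FPKM, had a log2 fold change of 0.014.

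The genes with the pattern most like each member over the 8 mice were taken by Pearson's r of log2(CPM + 1), among 14539 genes with a mean of at least 1 CPM. With so many genes and 8 mice, high values are found for any pattern, and they are given as a description. For Mmp14 these were Lgals3 (r = 0.982), which encodes galectin-3, Nenf (0.977) and the immunoproteasome subunit gene Psmb9 (0.977). For Timp1 they were the prostaglandin receptor gene Ptger4 (0.957), Lsm2 (0.953) and Ciita (0.946), the regulator of MHC class II genes. For Timp2 they were Sash3 (0.986), Ms4a6d (0.973) and Cmklr1 (0.971).

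Of the stromal members, Mmp2 was closest to Rarres1 (0.986), the laminin gene Lama4 (0.974) and Prr11 (0.950). Timp3 was closest to Cd80 (0.961), Ror1 (0.953) and Ltbp4 (0.952), and Lox to the fibulin gene Fbln2 (0.967), Errfi1 (0.958) and Pla1a (0.952). Loxl1 was closest to Vim (0.963), the gene of vimentin, followed by Cntln (0.950) and Adamtsl5 (0.9445). Loxl2 was closest to Zfp335 (0.955), followed by the fibrillin-1 gene Fbn1 (0.938) and the stromal gene Cd248 (0.938). Mmp9 was closest to Med13 (0.982), Rrm2b (0.971) and Slc30a1 (0.967). Mmp3 was closest to Cd300a (0.951), followed by the skeletal muscle genes Tnni2 (0.951) and Ryr1 (0.943), both highest in control 3.

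Because the prostate holds several cell types that express these genes, marker lists were summed in each mouse. Adipocyte markers (Adipoq, Plin1, Cfd, Lep and Retn) summed to 199, 463, 30.9 and 73.9 CPM in control 1, 3, 65 and 69 and to between 0.815 and 17.2 CPM in etanercept-treated mice, without overlap. Of the 4 tested, 4 were lower with etanercept at a nominal p in edgeR. T cell markers summed to 84.1, 112, 69.2 and 38.1 CPM in control mice, in the same order, and to between 33.8 and 51.7 CPM with etanercept, and 3 of 5 were lower at that p. Macrophage markers lay between 310.1 and 958 CPM in control and between 244 and 335 CPM with etanercept, with 3 of 7 lower at that p.

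By summed CPM, control 1, 3 and 65, the mice highest in Mmp14, were also the highest 3 in T cell, macrophage and basal epithelial markers, and control 1 and 3, the highest in Timp1, were the highest 2 in adipocyte markers. Control 69 was the lowest control mouse in Mmp14, Timp1 and the summed T cell, macrophage and basal epithelial markers. For macrophage markers this order depended on the sum. As mean log2(CPM + 1), control 1 was at 4.98, below control 69 (5.07), etanercept 19 (5.14) and etanercept 52 (5.09). Smooth muscle markers summed to 5862 ± 1722 CPM in control mice and 10758 ± 3095 CPM with etanercept (SD, n = 4 each), with overlap, and 4 of 6 were higher at that p. Basal epithelial markers were at 268 ± 80.2 and 172 ± 44.99 CPM, with 2 of 4 lower. Endothelial and B cell markers overlapped between the groups with 0 of 5 and 0 of 4 passing that p, and of 4 tested skeletal muscle markers 1 was lower, although their sum was 612 ± 726 CPM in control mice and 941 ± 292 CPM with etanercept. The fibroblast markers summed to 676 ± 325 CPM in control mice and 776 ± 217 CPM with etanercept, and 0 of 8 passed that p. The part of these markers in the values of Mmp14 and Timp1 was not tested.

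**Figure D5:**
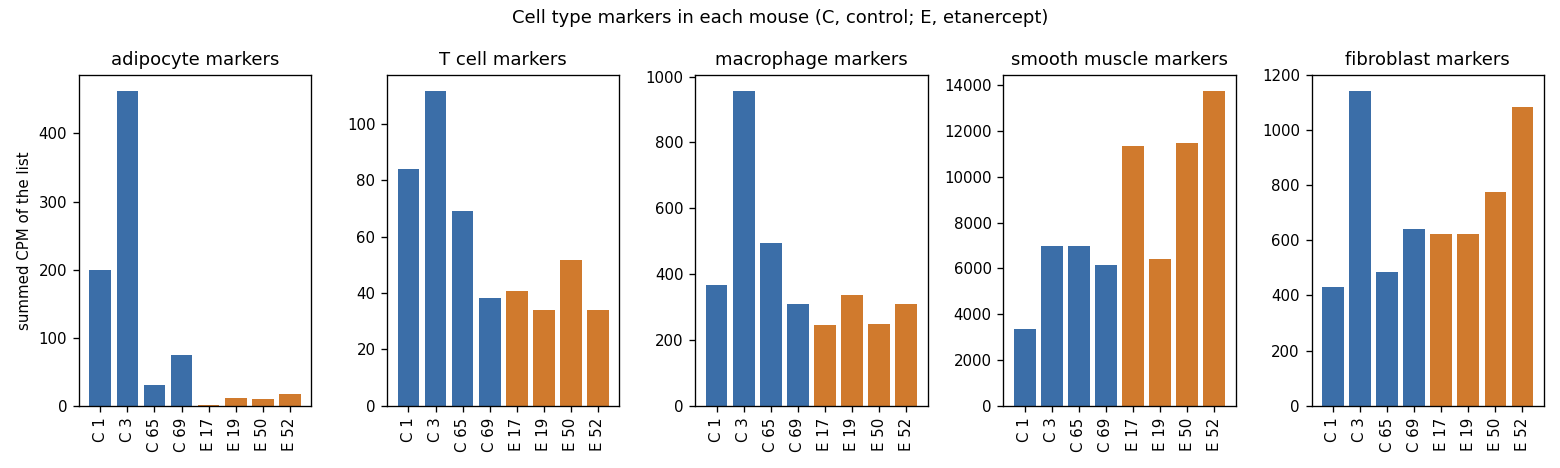
Bars give the summed CPM of 5 marker lists in each mouse (blue, control; orange, etanercept; each panel has its own axis from 0). Adipocyte markers are at least 30.9 CPM in control and at most 17.2 CPM in etanercept-treated mice, and smooth muscle markers reach 13767 CPM in etanercept 52, while the fibroblast panel peaks in control 3 and etanercept 52.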

How the data were processed

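Prostate RNA from 8 NOD mice, 4 per group, was poly(A)-selected and sequenced as paired reads of 150 nt. Per the labels, STAR 2.6.1d, featureCounts 1.5.0-p3, fastp and DESeq2 1.26.0 were used with build mm10. The authors deposited raw counts per gene and mouse, without normalization. The annotation and the strand setting are not given in the sources used here, and the labels name no sequencing batch.

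Genes were named with GENCODE M21 (GRCm38), which matched all but 37 of 54532 identifiers. Etanercept was compared with control by the quasi-likelihood test of edgeR 4.0.16 under R 4.3.3, after TMM scaling and filterByExpr (minimum count 10), with p-values adjusted by Benjamini-Hochberg over 15472 genes and tested on simulated data first. CPM and FPKM were computed here from the counts after TMM scaling, with the merged exon length. Standard errors are the log2 fold change divided by the root of the F statistic. Exact permutation tests were two-sided. DESeq2 1.42.0 and other scalings, filters and covariates were alternatives. Named genes are all members, and in each of 6 related lists the gene with the highest FPKM and at most 3 with an unadjusted p of at most 0.05. There were also 12 marker lists, of which 1 is not reported here. The members and lists were chosen with earlier results of these data known. No protein sequences were used here.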

Additional observations from a re-analysis of the deposited data

Results flagged for a closer look

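In 3 of the 22 groups of 4 mice examined, 1 mouse lay farther from the others than Dixon's 95% critical value for 4 values allows. Chance gives about 1 of 20 groups, a rate that does not apply to the 2 groups of Mmp3 given last. For Timp3 the gap between etanercept 52, at 93.3 CPM, and the nearest etanercept-treated mouse was 0.969 of the range of the group on the log2(CPM + 1) scale. Etanercept 52 was also the highest mouse in smooth muscle markers, at 13767 CPM. For Mmp3 the gap was 0.961 of the range in control 3, with 22 counts, and 1.0 in etanercept 19, with 7 counts, where the other mice of each group had 0 counts or, in control 1, 1 count. With the other mice at 0 or 1 count, this gap is fixed at or near the whole range, so that these 2 groups are no evidence of an unusual mouse.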

How the results depend on the processing

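Mmp14 kept its direction and a nominal p (unadjusted, at most 0.05) in all 18 alternative fits, with a log2 fold change between −1.12 and −0.70, and Timp1 kept its direction in all 18 and that p in 13, with a log2 fold change between −1.40 and −0.85. Adjusted p lay between 0.274 and 0.9995 for Mmp14 and between 0.344 and 0.9995 for Timp1 over these fits. The number of members lower at a nominal p, 2 in the main analysis, was 1 with the length trend removed and between 1 and 2 with single mice left out. Over all genes, 21 passed the adjusted threshold with DESeq2 and 0 in each of the other fits, those without a mouse included. The sign turned for Mmp2 without control 69 (−0.027) or etanercept 52 (−0.055), for Lox without control 3 (0.25), and for Loxl1 with the GC trend removed (0.072), with the animal number as a term (0.029) and without control 3 (0.40), etanercept 19 (0.22) or etanercept 50 (0.015). Over the fits without a mouse, the log2 fold change spanned −0.055 to 0.75 for Mmp2, −0.56 to 0.25 for Lox and −0.38 to 0.40 for Loxl1. With the length of the longest transcript in place of all exons, the mean level was 27.1 FPKM for Mmp14 and 10.3 FPKM for Timp3, which then ranked above Timp1. The log2 difference in the MMP to TIMP ratio, −0.28 in the main analysis, was 0.83 without Mmp14 and Timp2, −0.46 over all MMP and TIMP genes (chosen after seeing the data), and between −0.44 and −0.12 with single mice left out. The value without Mmp14 and Timp2 keeps Timp1, which was lower with etanercept, in its denominator. The causes of the other changes were not tested. Mmp3 had 0 counts in 5 mice and at most 22 in the others, and no edgeR fit was made for it after the filter on low counts.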
